A study of Mus musculus with 9 samples.

Results

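Transcripts of 10 circadian clock genes were measured by RNA-seq in mouse embryonic stem cells (ESCs, cells that can form all tissues of the embryo) given one of 2 GSK3 inhibitors for 30 minutes. The 10 were taken by their symbols from a table of 52264 genes: Per1, Per2, Per3, Cry1, Cry2, Nr1d1, Nr1d2, Dbp, Bhlhe40 and Clock. The list is by symbol, without a threshold on a measured value, but it was proposed with earlier results of these data known. The low-count filter kept all 10. All 9 libraries came from ESCs labelled β-catenin-/-. They form 3 groups of 3: an untreated control, BRD0705, an inhibitor selective for GSK3α, and CHIR (CHIR-99021), an inhibitor of both GSK3α and GSK3β. All cells were grown on feeder-treated dishes, and for expansion in the naive state LIF (40 ng/ml), CHIR-99021 (3 µM) and PD03, which inhibits MEK (1 µM), were added, so the control cells had a history of CHIR-99021 too. The medium was replaced by N2B27 overnight before the 30-minute treatment. The labels give neither the dose of the treatments nor a vehicle for the control, and do not say whether the line is 1 clone or whether replicates were separate cultures, so the tests measure only the spread between these libraries.

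The circadian clock is a transcriptional feedback loop. CLOCK and its partner BMAL1 (gene symbol Arntl) bind E-box sequences and switch on the Per, Cry, Nr1d1, Nr1d2, Dbp and Bhlhe40 genes, and the PER and CRY proteins return to the nucleus and repress CLOCK and BMAL1. NR1D1 and NR1D2 (REV-ERBα and β) repress Arntl, DBP activates genes with D-boxes, and BHLHE40 (DEC1) is a repressor that competes at E-boxes. GSK3 phosphorylates several clock proteins, and Per1 and Bhlhe40 are known to respond quickly to outside signals. In pluripotent stem cells this loop is known not to run as the rhythm seen in differentiated cells, whereas fibroblasts have a running clock. No protein was measured here.

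Because Per1 and Per3 are members whose transcripts passed a test below, the DNA before their starts is shown, with motif matches in capitals. Sequences are from RefSeq (GRCm38.p6, the assembly also called mm10). Of the 10 members 8 had a promoter entry, with 11 starts in all. Bhlhe40, which also passed a test below, and Per2 had no entry, so their promoters were not searched. Per1 is listed at chr11:69095108-69109965 (+ strand) and Per3 at chr4:150997018-151044707 (- strand). The 250 bases before the second listed start of Per1, at chr11:69099902-69100151, held 1 cAMP response element core (TGACG), the site family of the signal-responsive factor CREB.
Per1, second start: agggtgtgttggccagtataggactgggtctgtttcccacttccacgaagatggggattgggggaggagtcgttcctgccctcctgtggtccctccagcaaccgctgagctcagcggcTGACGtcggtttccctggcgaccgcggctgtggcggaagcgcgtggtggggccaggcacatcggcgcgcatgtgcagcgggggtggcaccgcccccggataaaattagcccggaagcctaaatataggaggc
The 250 bases before the start of Per3, at chr4:151044666-151044915, held 2 copies of the D-box TTATGTAA.
Per3: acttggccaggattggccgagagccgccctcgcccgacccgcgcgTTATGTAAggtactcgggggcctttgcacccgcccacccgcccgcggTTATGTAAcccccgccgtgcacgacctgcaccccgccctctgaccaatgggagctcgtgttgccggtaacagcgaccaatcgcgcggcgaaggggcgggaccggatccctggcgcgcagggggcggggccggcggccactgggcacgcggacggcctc

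E-box matches are shown in their context because E-boxes are the sites of CLOCK itself.
Per1, first start: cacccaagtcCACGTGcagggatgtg
Cry1: tgccggtggtCACGTGgggtgcatgc
Both strands of the 300 bases from 250 before to 50 after each listed start were searched for CACGTG (E-box), CACGTT (E-prime box), TTATGTAA (D-box), TGACGTCA (full cAMP response element), its core TGACG, and TAGGTCA (the core of the element bound by NR1D1). Every TGACGTCA also contains TGACG. The E-box was found in 7.15% of 32851 RefSeq promoters, the E-prime box in 4.68%, the D-box in 0.938%, TGACGTCA in 1.79%, TGACG in 20.8% and TAGGTCA in 2.61%. The E-box of Per1 began 166 bases before its first start, and the window of that start also held a TGACG. Cry1 had its E-box beginning at -60, an E-prime box at -79 and a TGACG at -8. Cry2 had an E-prime box at -166 and a TGACG at -209, and Nr1d1 had an E-prime box at -28. The windows of Nr1d2, Dbp and Clock held none of the 6 letter strings. A match is a description of letters and says nothing about a factor's binding in these cells.

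Library totals ran from 17359422 to 20773337 counts. All 10 ESC markers of a list that includes Pou5f1, Sox2 and Nanog were detected and tested. All 12 markers of feeder fibroblasts, such as Col1a1 and Col3a1, were detected too, with summed levels of 2392 to 2876 CPM (counts scaled to a common library size) in control, 3036 to 3134 in BRD0705 and 2726 to 3243 in CHIR libraries, while 6 of 7 markers of differentiated lineages were tested and all 7 summed to between 10.2 and 14.3 CPM. Ctnnb1, which encodes β-catenin, had 5657 to 7457 counts in every library (303 to 371 CPM), and the deleted part is not given in the labels, so a gene total does not check the genotype. Fewer cells of a type and less RNA per cell cannot be told apart in these bulk samples.

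The members differed widely in abundance. Per kb of the longest annotated transcript, mean levels over the 9 libraries ran from 24.9 CPM per kb for Bhlhe40 to 0.108 for Per2. Nr1d1 stood at 11.1, Per1 at 8.96, Cry1 at 7.32 and Cry2 at 7.05 CPM per kb. Nr1d1 and Per1, Per1 and Cry1, and Cry1 and Cry2 overlapped with their neighbour in this order. Clock followed at 3.23, Nr1d2 at 2.58, Dbp at 0.993 and Per3 at 0.557 CPM per kb, with no overlap between neighbours from Cry2 down. Per2 rested on 8 to 20 counts in a library, and Dbp on 30 to 42.

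**Figure D1:**
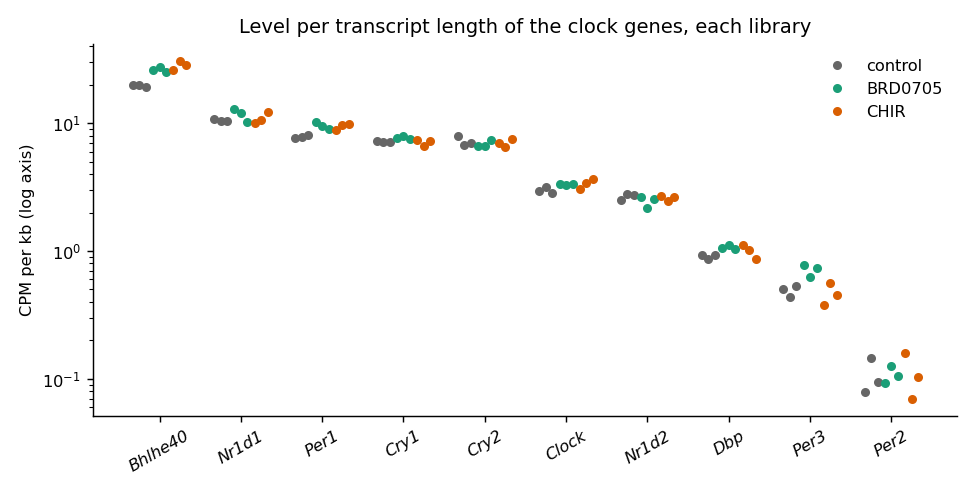
Level of each member in CPM per kb of its longest transcript (log axis), with 1 point per library coloured by group. Bhlhe40 is highest, at 19.3 to 30.8, and Per2 is lowest, at 0.0698 to 0.158.

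Bhlhe40 and Per1 were higher with either inhibitor than in control, and no member was lower past the threshold. Under BRD0705, Bhlhe40 was 1.33-fold and Per1 1.21-fold of control. Under CHIR, Bhlhe40 was 1.45-fold and Per1 1.20-fold of control. Per3 was 1.55-fold higher with BRD0705 than with CHIR. Calls were made with edgeR's quasi-likelihood test at a Benjamini-Hochberg adjusted p under 0.05 over all 15366 tested genes, and both comparisons with control share the same 3 control libraries.

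For BRD0705 against control, 2 of 10 members were called, both higher, against 1.22% of all tested genes called in either direction and 0.69% called higher. At an unadjusted p under 0.05 there were 4 members, where all tested genes gave 15.9%. The BRD0705 and control libraries did not overlap in CPM for 6 members, against 20.2% of all tested genes. The members' median log2 difference was 0.16, and that of all tested genes was 0.00 (-0.0038). DESeq2 called 2 members as well, and 5.48% of the genes to which it gave an adjusted p. It gave no adjusted p to Per2 in any comparison, nor to Per3 and Dbp in this one, so these could not be called.

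For CHIR against control, 2 of 10 members were called, both higher, against 6.3% of all genes in either direction and 2.52% higher. At an unadjusted p under 0.05 there were 3 members (all genes, 20.5%), and 2 had groups that did not overlap (all genes, 25.1%). The members' median log2 difference was 0.07, and that of all genes was -0.01. DESeq2 called 2 members and 6.46% of its genes. The share of calls that were higher over all genes was 40%, and it was 54% with DESeq2, 26.4% when scaled by library size only and 65.4% under a GC and length correction that also moved the library scaling.

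For BRD0705 against CHIR, 1 of 10 members was called, higher with BRD0705, against 7.77% of all genes in either direction and 4.8% higher. A share of 1 in 10 is close to that background. At an unadjusted p under 0.05 there was 1 member (all genes, 22.5%), and 2 had groups that did not overlap (all genes, 26.7%). DESeq2 called 0 members and 8.02% of its genes. The members' median log2 difference was 0.00 (-0.0018), beside 0.00 (0.0038) for all genes. The share of higher calls was 61.8%, and it was 79.2% by library size only and 33.5% under the correction that moved the scaling.

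**Figure D2:**
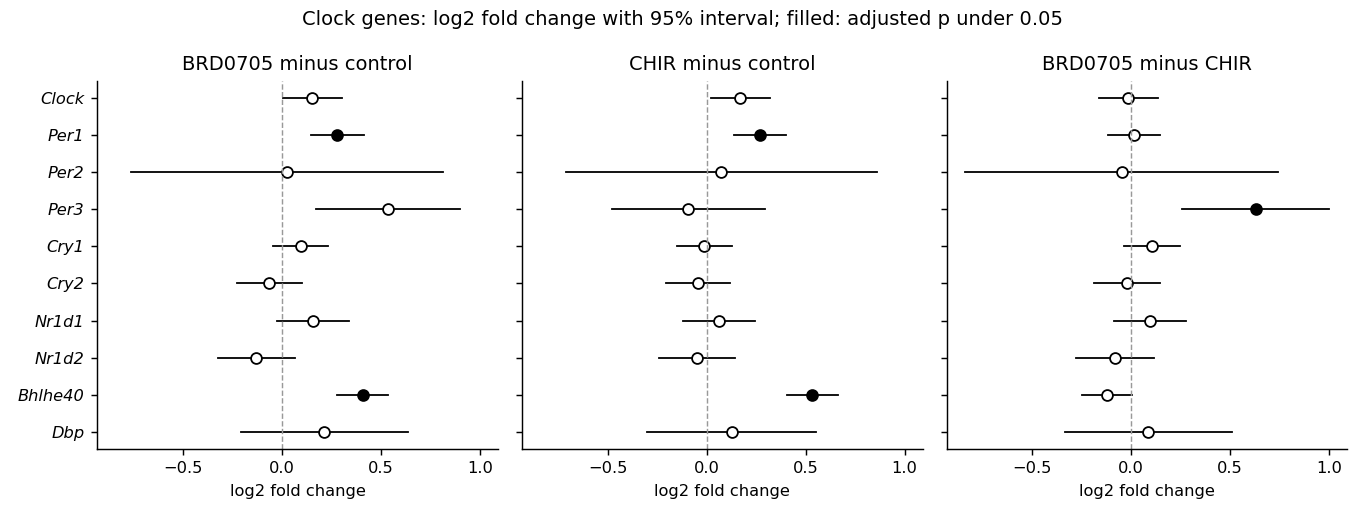
Log2 fold change of each member in the 3 comparisons, with 95% intervals from the edgeR fit and 0 marked. The intervals of Bhlhe40 and Per1 lie above 0 against control for both inhibitors, and that of Per3 lies above 0 for BRD0705 against CHIR.

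Bhlhe40, the E-box repressor, is listed at chr6:108660629-108666925 and was the most abundant member. Its control libraries held 94.2, 93.4 and 90.6 CPM (mean 92.7 ± 1.89, SD, n = 3). The BRD0705 libraries held 123, 129 and 118 CPM, and the CHIR libraries 123, 144 and 135 CPM. Every treated library was above every control library, and the inhibitor groups overlapped with each other.

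Against control, Bhlhe40 rose by a log2 difference of 0.41 ± 0.06 (SE) under BRD0705 (95% interval 0.28 to 0.54, edgeR adjusted p = 0.0047). Under CHIR it rose by 0.53 ± 0.06 (0.40 to 0.66, edgeR adjusted p = 5.3e-05). Both calls held in 9 of 9 fits that left out 1 library. Between the inhibitors the log2 difference, BRD0705 minus CHIR, was -0.12 with an interval of -0.25 to 0.00 (upper bound 0.0038), which did not pass the threshold (edgeR adjusted p = 0.24). When the feeder marker score was added to the fit, the BRD0705 difference was 0.41 and not called (adjusted p = 0.12), and the CHIR difference was 0.54 and called (adjusted p = 0.0035).

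**Figure D3:**
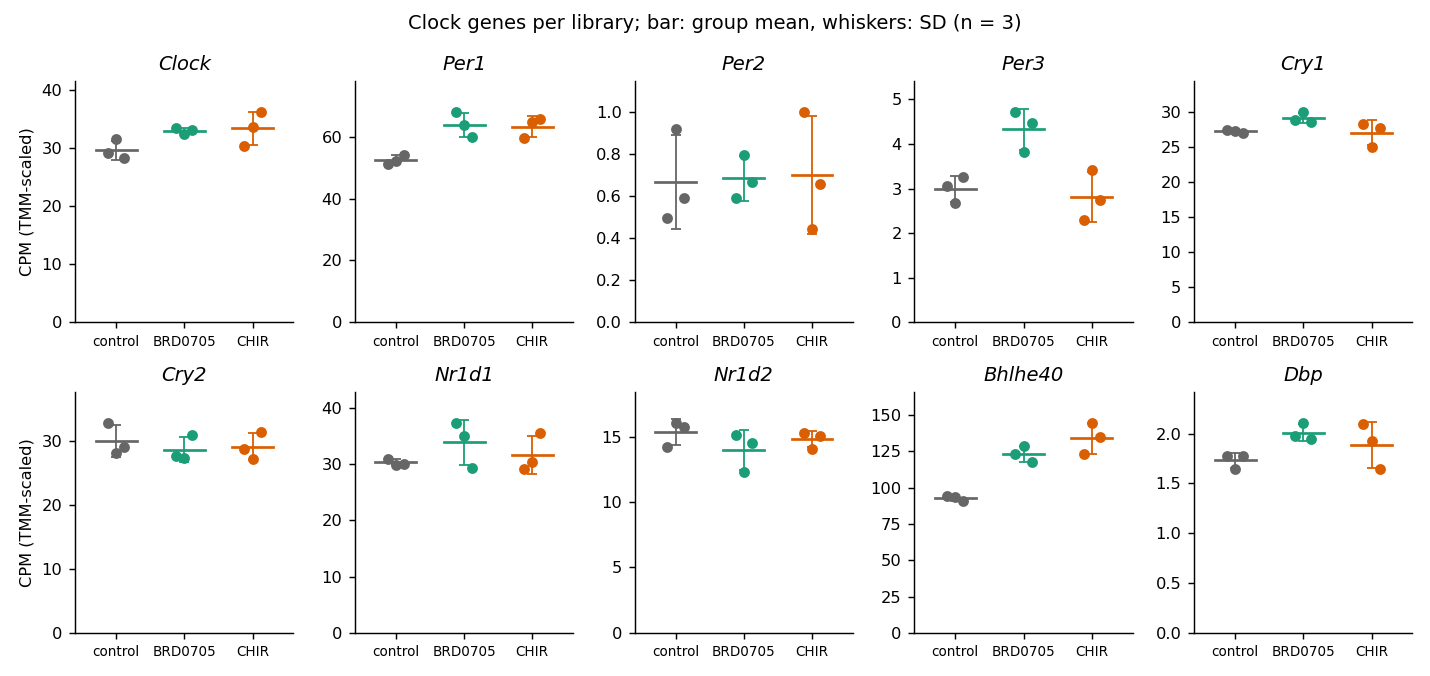
Level of each member in CPM in each of the 9 libraries, by group, with the group mean (bar) and SD (whiskers). For Bhlhe40 and Per1 all 6 treated libraries lie above the 3 controls, and for Per3 the 3 BRD0705 libraries lie above the other 6.

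Per1 encodes a PER repressor of the feedback loop. Its control libraries held 51.2, 52.4 and 54.2 CPM (mean 52.6 ± 1.48, SD, n = 3). The BRD0705 libraries held 67.9, 63.7 and 60.0 CPM, and the CHIR libraries 59.6, 64.7 and 65.7 CPM. All 6 treated libraries were above the 3 controls, and the inhibitor groups covered nearly the same range.

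Per1 rose by a log2 difference of 0.28 ± 0.06 (SE) under BRD0705 (95% interval 0.15 to 0.41, edgeR adjusted p = 0.037) and by 0.27 ± 0.06 under CHIR (0.14 to 0.40, edgeR adjusted p = 0.015). BRD0705 minus CHIR was 0.01, with an interval of -0.12 to 0.14. The BRD0705 call held in 3 of 9 fits without 1 library. It was lost without BRD0705 replicate 1 (adjusted p = 0.22) or 2 (0.097), CHIR replicate 2 (0.062), or control replicate 1 (0.061), 2 (0.13) or 3 (0.094), at log2 differences from 0.24 to 0.31. The CHIR call held in 6 of 9, and was lost without CHIR replicate 2 (0.064) or 3 (0.058) or control replicate 2 (0.051). A correction for GC content and length gave 0.19 for BRD0705 (adjusted p = 0.16). Adding the feeder marker score gave 0.33 for BRD0705 (adjusted p = 0.25) and 0.31 for CHIR (adjusted p = 0.080).

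Per3 encodes another PER protein, and its 2 D-boxes are shown above. Its control libraries held 3.06, 2.66 and 3.25 CPM (mean 2.99 ± 0.300, SD, n = 3). The BRD0705 libraries held 4.71, 3.81 and 4.46 CPM, and the CHIR libraries 2.29, 3.41 and 2.73 CPM. The BRD0705 libraries were the highest 3 of the 9, and control and CHIR libraries overlapped.

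BRD0705 minus CHIR was a log2 difference of 0.63 ± 0.18 (SE) for Per3 (95% interval 0.26 to 1.00, edgeR adjusted p = 0.036). BRD0705 minus control was 0.54 ± 0.17 (0.17 to 0.90) and did not pass the threshold (edgeR adjusted p = 0.13). CHIR minus control was -0.09, with an interval of -0.48 to 0.29. The call between the inhibitors was not made by DESeq2 (adjusted p = 0.086), and edgeR did not make it with only the BRD0705 and CHIR libraries (0.054) or after the GC and length correction (0.053). It was also lost without BRD0705 replicate 1 (0.14) or 3 (0.086) or CHIR replicate 1 (0.14) or 3 (0.088), and held in 5 of 9 such fits. Of the 13 alternatives that were not such omissions, 7 made the call. With the feeder marker score in the fit the difference was 0.62 and called (edgeR adjusted p = 0.043).

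Per2, the remaining PER gene, was barely detected, at 0.668 ± 0.224 CPM in control, 0.683 ± 0.105 in BRD0705 and 0.698 ± 0.281 in CHIR libraries (SD, n = 3 each). Its groups overlapped in every comparison. The interval for BRD0705 against control ran from -0.76 to 0.81 on the log2 scale. The adjusted p threshold is stricter than this interval, so even a difference of about that size might not be called at this depth.

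The cryptochromes, which repress CLOCK and BMAL1 together with the PER proteins, were not called. Cry1 held 27.4, 27.3 and 26.9 CPM in control, 28.8, 29.9 and 28.4 in BRD0705 and 28.3, 24.9 and 27.7 in CHIR libraries. Its BRD0705 libraries lay above all others, but the log2 difference from control was 0.09 (95% interval -0.05 to 0.23, edgeR adjusted p = 0.53). Cry2 held 30.0 ± 2.46 CPM in control, 28.7 ± 1.98 in BRD0705 and 29.1 ± 2.11 in CHIR libraries (SD, n = 3 each), with groups that overlapped. The log2 difference of Cry2 from control was -0.06 under BRD0705 (-0.23 to 0.10) and -0.04 under CHIR (-0.21 to 0.12).

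Clock, the E-box activator, held 29.1, 31.5 and 28.3 CPM in control, 33.4, 32.5 and 33.1 in BRD0705 and 30.4, 33.6 and 36.1 in CHIR libraries. The BRD0705 libraries were above all controls, and the CHIR libraries overlapped with them. The log2 difference was 0.15 under BRD0705 (95% interval 0.0047 to 0.30, edgeR adjusted p = 0.30) and 0.17 under CHIR (0.02 to 0.32, edgeR adjusted p = 0.18), so both intervals lay above 0 and neither passed the threshold. Its partner Arntl, which is not among the 10, held 31.4 ± 0.913 CPM in control, 31.7 ± 0.833 in BRD0705 and 34.1 ± 0.726 in CHIR libraries (SD, n = 3 each) and was not called in any comparison.

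Nr1d1 and Nr1d2, the repressors of Arntl, were not called. Nr1d1 held 30.9, 29.9 and 30.1 CPM in control, 37.2, 34.9 and 29.3 in BRD0705 and 29.1, 30.3 and 35.5 in CHIR libraries. In each inhibitor group at least 1 library lay below every control library. The log2 difference was 0.16 under BRD0705 (95% interval -0.02 to 0.34) and 0.06 under CHIR (-0.12 to 0.24). Nr1d2 held 15.3 ± 0.992 CPM in control, 14.0 ± 1.501 in BRD0705 and 14.8 ± 0.634 in CHIR libraries (SD, n = 3 each), with overlapping groups and log2 differences of -0.13 (-0.32 to 0.06) and -0.05 (-0.24 to 0.14).

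Dbp, the D-box activator and an output of the clock, held 1.77, 1.65 and 1.77 CPM in control, 1.98, 2.11 and 1.95 in BRD0705 and 2.09, 1.93 and 1.64 in CHIR libraries. The BRD0705 libraries lay above the controls, with a log2 difference of 0.21 whose interval ran from -0.21 to 0.63 (edgeR adjusted p = 0.67). Under CHIR it was 0.13 (-0.30 to 0.55). In the GENCODE annotation Dbp shares exon sequence with Sphk2 on the other strand, Nr1d1 with Thra, Clock with Tmem165, Bhlhe40 with 0610040F04Rik, Per3 with Uts2 and Cry2 with D930015M05Rik. Whether the counting used strand is not given in the sources used here, so reads from the shared stretches are uncertain for these 6 members. Per library, Uts2 had 0 to 1 counts (Per3, 46 to 94) and D930015M05Rik 0 to 5 (Cry2, 482 to 666). The counts of 0610040F04Rik were 6 to 20 (Bhlhe40, 1838 to 2624). Those of Thra were 201 to 306 (Nr1d1, 551 to 696), and those of Tmem165 were 677 to 874 (Clock, 571 to 696). Exons of Per1 overlap by up to 334 bp with Gm72400 on the other strand, which has no row of its own in the table, so the same uncertainty holds for Per1. Per3 likewise overlaps by up to 285 bp with Gm69183, and Nr1d1 by up to 17 bp with Gm31862, which also have no row. Clock further shares exon sequence with Apc-ps1 and Gm7467 on the other strand, which had 0 to 3 and 0 to 4 counts in a library. For Dbp the shared exon stretch with Sphk2 is up to 539 bp. Sphk2 held means of 68.5 CPM in control, 77.4 in BRD0705 and 64.0 in CHIR libraries, and its BRD0705 libraries also lay above the controls. It was called higher with BRD0705 than with CHIR (log2 difference 0.27, edgeR adjusted p = 0.011). Its share in the reads of Dbp was not tested.

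The fit tested 34 other genes of the pathway. Against control, BRD0705 called 0 of 34 with edgeR, with 6 at an unadjusted p under 0.05 (all genes, 15.9%). DESeq2 called 1, Noct, a clock-controlled deadenylase-like protein (adjusted p = 0.045), and limma on the normalized values called 0. In this comparison DESeq2 gave no adjusted p to several of the 34, Bhlhe41 and Usp2 among them. CHIR called 2, Bhlhe41 higher and Usp2 lower, and 8 had an unadjusted p under 0.05 (all genes, 20.5%). DESeq2 called 3 for CHIR, these and the casein kinase gene Csnk1d (log2 difference 0.19, adjusted p = 0.049). Noct and Csnk1d did not pass edgeR's threshold against control, and are named after their values were seen. Between the inhibitors 2 were called, Csnk2a2 and Sirt1, both lower with BRD0705 than with CHIR. There 5 had an unadjusted p under 0.05 (all genes, 22.5%). These edgeR counts of 0, 2 and 2 of 34 stand beside 1.22%, 6.3% and 7.77% of all genes. The DESeq2 counts of 1 and 3 against control stand beside 5.48% and 6.46% of the genes to which it gave an adjusted p. The median log2 difference of the 34 was 0.02, 0.06 and -0.01 in the 3 comparisons.

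Bhlhe41 (DEC2), the closest relative of Bhlhe40, held 3.15, 4.02 and 3.65 CPM in control, 4.92, 5.97 and 4.51 in BRD0705 and 6.38, 5.62 and 5.36 in CHIR libraries. All treated libraries were above all controls. It rose under CHIR by a log2 difference of 0.68 ± 0.15 (SE, edgeR adjusted p = 0.012), a call lost without CHIR replicate 1 (0.050333), and under BRD0705 the difference was 0.50 (95% interval 0.17 to 0.83, adjusted p = 0.12). Usp2, a deubiquitinase that acts on clock proteins, held 6.41, 5.28 and 6.55 CPM in control, 5.46, 4.95 and 3.66 in BRD0705 and 3.34, 3.41 and 3.44 in CHIR libraries. It fell under CHIR by 0.84 on the log2 scale (edgeR adjusted p = 0.0047, called in 9 of 9 fits without 1 library). When the feeder marker score was added to the fit, the log2 differences under CHIR were 0.72 for Bhlhe41 and -0.88 for Usp2. Neither passed the threshold (edgeR adjusted p = 0.12 and 0.064).

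Csnk2a2, a catalytic subunit of casein kinase 2, held 112, 110 and 102 CPM with BRD0705 and 128, 120 and 130 with CHIR, beside 121, 121 and 114 in control. Its log2 difference, BRD0705 minus CHIR, was -0.22 ± 0.06 (SE, edgeR adjusted p = 0.022), and was not called without BRD0705 replicate 3 (0.080) or CHIR replicate 1 (0.075) or 3 (0.068). Sirt1, a deacetylase that acts on clock proteins, held 90.2, 93.6 and 102 CPM with BRD0705 and 112, 109 and 108 with CHIR, beside 94.4, 104 and 100.5 in control. Its difference was -0.20 ± 0.06 (SE, edgeR adjusted p = 0.041). That call held in 3 of 9 fits without 1 library, and was lost without BRD0705 replicate 1 (0.17) or 2 (0.12), CHIR replicate 1 (0.12), 2 (0.099) or 3 (0.072), or control replicate 3 (0.059). The Sirt1 call was also lost under the GC and length correction (-0.14, adjusted p = 0.11), by library size only (-0.17, 0.11) and with the feeder marker score (-0.20, 0.051).

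**Figure D4:**
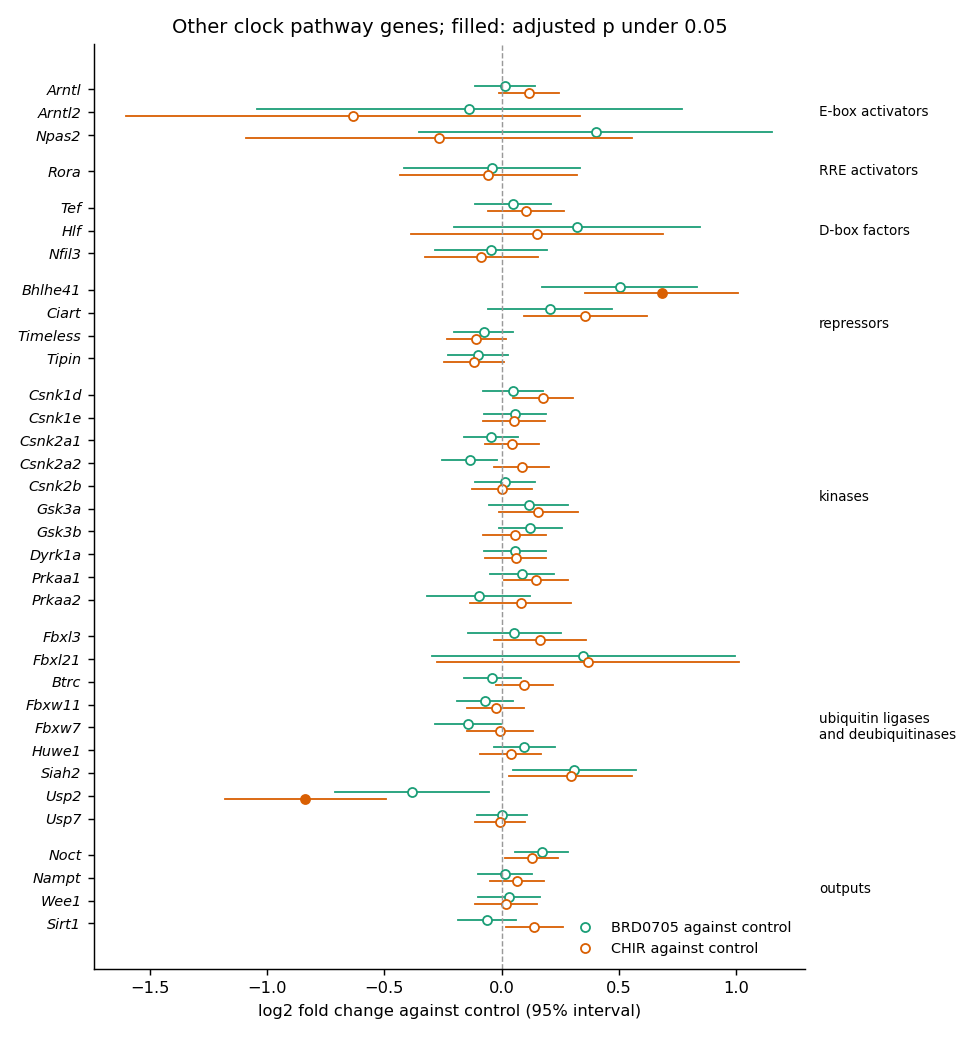
Log2 fold change against control of the 34 other tested clock pathway genes, grouped by role, for BRD0705 and CHIR, with 95% intervals from the edgeR fit; filled points passed the adjusted p threshold of 0.05. The filled points are Bhlhe41 (0.68) and Usp2 (-0.84), both under CHIR.

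Feeder fibroblast markers moved with the treatments. Their mean log2 CPM was 5.99 ± 0.08 in control, 6.18 ± 0.04 in BRD0705 and 6.17 ± 0.15 in CHIR libraries (SD, n = 3 each). All BRD0705 libraries lay above all controls, whereas CHIR and control overlapped. Of the 12 markers 11 were higher under BRD0705 and 12 under CHIR, with 2 called in each, and none of the 12 was at 0. CHIR replicate 3 had a score of 5.99, inside the control range of 5.92 to 6.08. The other treated libraries had scores from 6.14 to 6.27, above every control library. The covariate fits given above therefore cannot tell feeder content from treatment for BRD0705, and for CHIR they lean on CHIR replicate 3. Any part of feeder fibroblasts in the differences of Bhlhe40, Per1, Per3, Bhlhe41 and Usp2 was not tested.

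**Figure D5:**
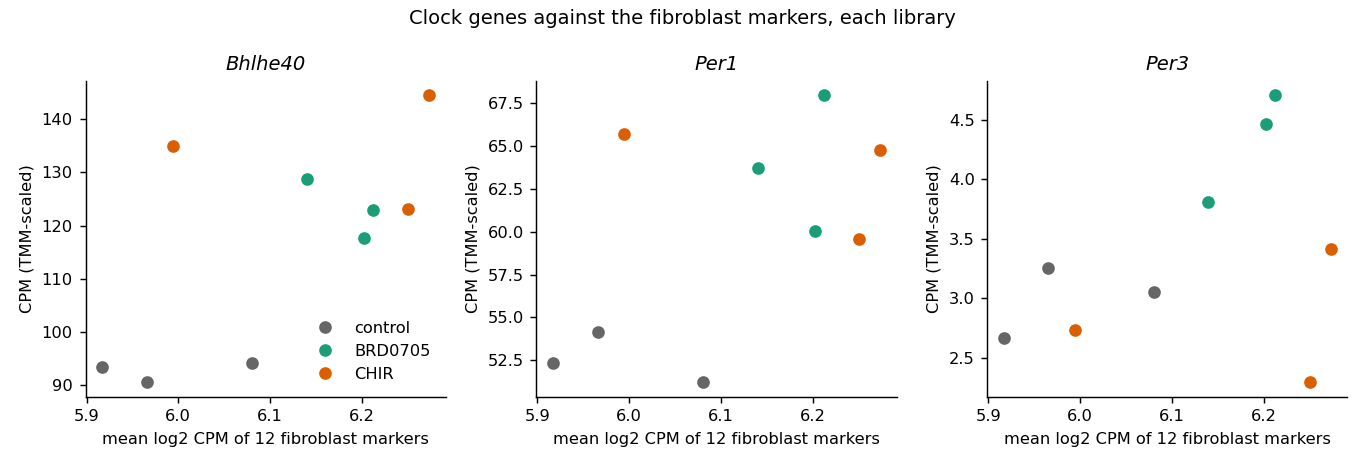
Level of Bhlhe40, Per1 and Per3 in CPM against the mean log2 CPM of 12 feeder fibroblast markers, with 1 point per library. The BRD0705 libraries, at marker scores from 6.14 to 6.21, lie to the right of the controls, at 5.92 to 6.08.

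Across the 9 libraries, the genes most like the called members by Pearson's r of log2 CPM were listed among 9314 candidates for Per1 and Bhlhe40 and 9315 for Per3. For Per1 they included Klf3 (0.96) and Paxip1 (0.96), and for Bhlhe40 they were Hmox1 (0.97), Rpusd3 (0.97) and Cxxc1 (0.96). For Per3 they were Zxdc (0.98), Ppp1r9b (0.96) and Tacc2 (0.95). These are the highest among all candidates over only 9 points that share group and library, and they are given as a description.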

How the data were processed

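The 9 libraries were mapped to groups by their treatment labels. The deposited table of raw counts per gene holds whole numbers; the submitters' processing notes name RSEM, DESeq2 and mm10 without versions or roles, so the counts may be rounded estimates. The deposited normalized table is a signal that equals each library's count divided by 1 factor, matching DESeq2-type size factors. The labels name polyA RNA, while the protocol names a RiboZero kit, and 2 different extraction kits are named.

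Counts were fitted with edgeR 4.0.16 in R 4.3.3 (quasi-likelihood test, TMM scaling, filterByExpr with a minimum count of 10, group means over all 9 libraries, 6 residual degrees of freedom), which kept 15366 of 52264 genes. Standard errors came from the F statistic. DESeq2 1.42.0, limma 3.58.1 on log2(value + 1), other scalings and filters, covariates and omissions of 1 library were alternatives. CPM values are TMM-scaled. The 10 members were all named; of other pathway genes, those past the threshold and Arntl were named, and for likeness the 3 genes with the highest r, of which 1 is not reported here. The members and lists were chosen with earlier results of these data known.

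The fit was tested on data simulated for BRD0705 against control, with 200 genes changed. With a dispersion per gene edgeR recovered 59.8% of genes changed by 0.5 (log2), and 9.23% of its calls were false. A simulation with trended dispersions, tried after that result, gave 63% and 5.11%. Replicates differed by more than counting noise (chi-square per degree of freedom from 3.37 to 7.89 over 9 pairs), so no pair was a copy that differed by counting alone. This cannot tell separate cultures from separate preparations of the same sample.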

Additional observations from a re-analysis of the deposited data

How the results depend on the processing

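Counts of called genes are given as all genes, members and other pathway genes. For BRD0705 against control (188, 2 and 0), DESeq2 called 471 genes and 1 other pathway gene, omitting the low-count filter gave 609 genes, and the feeder score as a covariate gave 0 genes and 0 members. The GC and length correction, alone or with the replicate block, gave 111 genes and 1 member. For CHIR against control (968, 2 and 2) the feeder score gave 208, 1 and 1; the pathway gene was Ciart (0.62, adjusted p = 0.032), named after its values were seen, and neither Bhlhe41 nor Usp2. For BRD0705 against CHIR (1194, 1 and 2), the members called fell to 0 with DESeq2, the replicate block, only the 2 groups compared and the GC and length correction with or without the block, and other pathway genes fell to 1 by library size only or with the feeder score. Under the GC and length correction, with or without the block, the pathway count stayed at 2 because Csnk1d was gained (-0.22) and Sirt1 lost (-0.14).

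The GC and length correction was first run so that it also moved the library scaling; it was then centred, and this change was chosen after seeing the data. The first version gave 116 genes and 1 member for BRD0705 against control, 1531 genes (1002 higher, 529 lower; centred, 480 and 697) and 6 other pathway genes for CHIR against control. For BRD0705 against CHIR it gave 491 genes higher and 974 lower (centred, 640 and 478), and Bhlhe40 was then called lower with BRD0705 (-0.20, adjusted p = 0.037).

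Leaving out 1 library gave 21 to 305 genes, 1 to 2 members and 0 other genes for BRD0705 against control. The lowest was without BRD0705 replicate 1, and counts were also over 1.5 times away without BRD0705 replicate 2 (55) or 3 (305), CHIR replicate 2 (98) and control replicate 1 (292), 2 (37) or 3 (51). For CHIR against control the ranges were 514 to 1070, 1 to 2 and 2 to 3, with 514 and 633 without CHIR replicates 2 and 1, and 523 and 561 without control replicates 2 and 3. For BRD0705 against CHIR they were 616 to 1313, 0 to 1 and 0 to 2, with 616 and 756 without BRD0705 replicates 1 and 2, and 675 and 617 without CHIR replicates 1 and 2.

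Of the log2 differences of named genes, 42 values changed sign, none of them a called value. Outside the omissions of a library these were, for BRD0705 against control, Per2 under the GC and length correction (-0.044, -0.037 with the replicate block, -0.041 in the first version). For CHIR against control they were Cry1 with DESeq2 (0.0028), the feeder score (0.028) and the GC and length correction (0.0027, 0.0019 with the block, 0.048 in the first version), and Dbp with the feeder score (-0.030). For BRD0705 against CHIR they were Per1 under that correction (-0.077, -0.076 with the block, -0.12 in the first version), Per2 in limma on log2(value + 1) and (value + 0.1) (0.023 and 0.030), Cry2 by library size only (0.011), Clock by library size only (0.016) and under the correction (0.029 with or without the block), and Nr1d1 (-0.0096) and Dbp (-0.029) in the first version.

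With 1 library left out, values that changed sign had these ranges. For BRD0705 against control they were -0.15 to 0.34 for Per2 and -0.12 to 0.0069 for Cry2. For CHIR against control they were -0.28 to 0.38 for Per2, -0.25 to 0.049 for Per3, -0.037 to 0.048 for Cry1, -0.091 to 0.032 for Cry2 and -0.021 to 0.13 for Nr1d1. For BRD0705 against CHIR they were -0.040 to 0.058 for Per1, -0.29 to 0.31 for Per2, -0.080 to 0.032 for Cry2, -0.0063 to 0.17 for Dbp and -0.082 to 0.042 for Clock. The causes were not tested.

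The replicate numbers showed no sign of pairing the samples: deviations from group means correlated from -0.090 to 0.080 between same-numbered libraries. Of 9 libraries, 2 correlated best with their own number. With the replicate block Per3 was 0.63 between the inhibitors (adjusted p = 0.051), and no other call on a member changed. Depth limits Per2, at 8 to 20 counts in a library.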
